A study of Mus musculus with 4 samples.

Results

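Type 1 conventional dendritic cells (cDC1) of the mouse liver were picked by a rule on UMIs (unique molecular identifiers, each standing for 1 captured RNA molecule) in 4 single-cell libraries. A barcode counted as a cDC1 with at least 2 UMIs of Xcr1 and Clec9a together, at most 4 UMIs of Ccr7, Fscn1 and Ccl22 together, and no UMI of Cd3e, Cd79a, Siglech or Clec4f. It also needed 300 genes or more, and mitochondrial genes could hold no more than 20% of its UMIs. Of 19176 kept barcodes, 158 met the rule. They were 46 of 5528 in the S/S TNF library, 47 of 6452 in the A/A TNF library, 39 of 4366 in the S/S baseline library and 26 of 2830 in the A/A baseline library. The 9 genes of the rule chose the cells, so their levels are a description and carry no comparison.

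cDC1 are the dendritic cells that take up dying cells and show pieces of their proteins on MHC class I to CD8 T cells, a process called cross-presentation. They arise under the transcription factors Irf8 and Batf3, respond to the chemokine Xcl1 through Xcr1, and sense dead cells through Clec9a. On maturation, dendritic cells gain costimulatory molecules and Ccr7, the receptor that guides them to lymph nodes. TNF, a cytokine of inflammation that acts through NF-kB transcription factors, is one of the signals that can mature them.

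The series measured polyadenylated RNA by 10x 3' sequencing in liver cells of 2-month-old mice of genotype S/S or A/A, untreated (baseline) or 3 h after 500 ng of TNF given into the peritoneum. The labels do not spell out what S and A stand for. Each of the 4 groups (S/S TNF, A/A TNF, S/S baseline and A/A baseline) is 1 library of cells pooled from 2 mice, so there were no replicates and no difference was tested. Cells had been enriched by slow spins, a density step that removed dead cells and a flow sort for macrophages and live cells, so shares of cDC1 also reflect the sort. Intervals in brackets are exact 95% intervals of counting error alone. They leave out differences between mice and preparations.

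Some technical features touch every comparison. Cell Ranger 6.1.2 had counted the S/S TNF and A/A TNF libraries and version 7.1.0 the libraries without TNF, per the file headers, so treatment and counting version cannot be told apart. Beside many TNF ratios, the mean log2 ratio of barcodes gated as T cells (at least 2 UMIs of Cd3e) and as B cells (at least 2 UMIs of Cd79a) is therefore given as the lymphocyte ratio, since those barcodes were counted by the same versions. TNF acts on lymphocytes too, so this ratio holds both version and treatment. The cDC1 of the TNF libraries were deeper, with medians of 19770 UMIs in S/S TNF cells and 17507 UMIs in A/A TNF cells, against 5983 UMIs in S/S baseline cells and 7248.5 UMIs in A/A baseline cells. The other kept barcodes had medians of 6461.5, 5815, 5492 and 4694 UMIs in the same order of libraries. Between 2 and 11 kept barcodes were shared by each pair of libraries. The deposited TNF barcodes all had at least 250 genes and under 20% mitochondrial UMIs, while baseline barcodes reached down to 67 genes in S/S and 50 in A/A, so the libraries were not trimmed alike before deposit.

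cDC1 made up 0.832% [0.610 to 1.11] of kept barcodes in the S/S TNF library and 0.728% [0.536 to 0.968] in the A/A TNF library, against 0.893% [0.636 to 1.22] in the S/S baseline library and 0.919% [0.601 to 1.34] in the A/A baseline library. The 4 intervals overlap. The rule rests on few UMIs: 12, 6, 14 and 8 members had exactly 2 UMIs of Xcr1 and Clec9a in S/S TNF, A/A TNF, S/S baseline and A/A baseline cells, and 37, 45, 39 and 22 barcodes outside had exactly 1. In the S/S TNF library the members at exactly 2 UMIs had 628 CPM of Irf8 (CPM, UMIs per 1000000 UMIs of the summed cells), and the barcodes with 1 UMI had 193 CPM. The share therefore moves with depth: with every barcode thinned to 1000 UMIs before the rule, it was 0.059% [0.012 to 0.173] in S/S TNF, 0.223% [0.119 to 0.381] in A/A TNF, 0.230% [0.105 to 0.437] in S/S baseline and 0.197% [0.064 to 0.460] in A/A baseline. These shares rest on 3, 13, 9 and 5 barcodes. They also follow the level of the rule genes: members held 172 Xcr1 and 137 Clec9a UMIs in S/S TNF, and 399 and 251 in A/A TNF. Another 66, 96, 147 and 110 barcodes had enough Xcr1 and Clec9a but carried a UMI of an excluded gene, most often the plasmacytoid marker Siglech (58, 82, 133 and 102).

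Markers of cDC1 that the rule did not use were found in most members, but not in all. The list of 12 cDC1 markers holds the rule genes Xcr1 and Clec9a, so its sum is a description: it was 3996 CPM in S/S TNF cells, 6166 CPM in A/A TNF cells, 4311 CPM in S/S baseline cells and 4425 CPM in A/A baseline cells, against 398, 454, 649.5 and 863 CPM in the other kept barcodes of those libraries. Of the 10 cDC1 markers outside the rule, members had a median of 7, 8, 5 and 5.5, and 39 of 46, 40 of 47, 31 of 39 and 24 of 26 members had at least 3. Most lists of other cells had low sums. T cell markers summed to 10.3, 10.4, 69.5 and 91.9 CPM in S/S TNF, A/A TNF, S/S baseline and A/A baseline cells, with Cd3e at 0 by the rule. Some sums were higher: neutrophil markers reached 4990.1 CPM in A/A TNF against 291, 116 and 583 CPM in S/S TNF, S/S baseline and A/A baseline cells, and erythroid markers 5615 CPM in S/S TNF against 25.3, 523 and 70.7 CPM in A/A TNF, S/S baseline and A/A baseline cells. Endothelial markers summed to 428, 590.0, 1040.4 and 38.9 CPM in the same order as the T cell markers. In 121 of the 158 members the cDC1 marker list stood above each of 13 lists for other cells. The rule fixed part of this split, since it required Xcr1 and Clec9a and held genes of other lists at 0 (Cd3e, Cd79a, Siglech and Clec4f) or at 4 UMIs or fewer (Ccr7, Fscn1 and Ccl22). In the other 37 another list stood higher: endothelial in 11, neutrophil in 5, mature dendritic cell, Kupffer cell, monocyte and erythroid in 4 each, hepatocyte in 2, and cDC2, pDC and NK cell in 1 each. These 37 held 14.1% of the UMIs of S/S TNF cells, 20.6% of A/A TNF, 19.9% of S/S baseline and 37.5% of A/A baseline. Whether they are doublets or cells with free RNA was not tested, and no doublet caller was run. Results are given over all 158 members and, where they differ, over the 121 core members (38 in S/S TNF, 35 in A/A TNF, 28 in S/S baseline and 20 in A/A baseline).

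**Figure D1:**
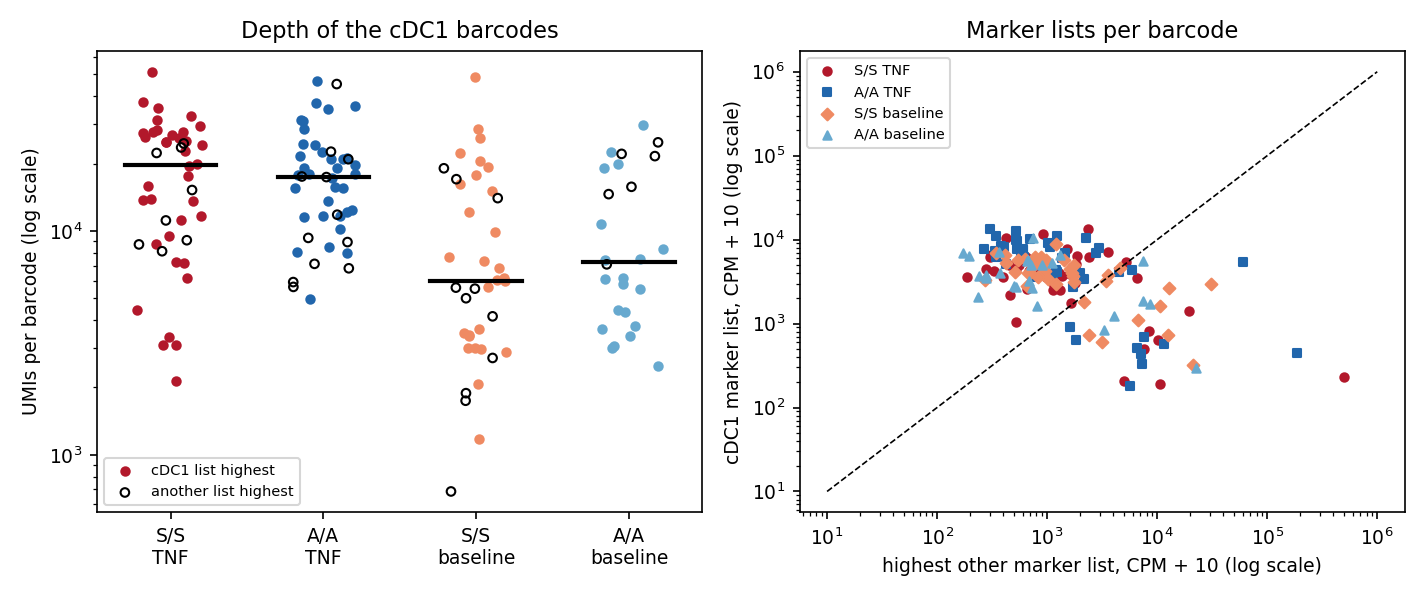
Left, UMIs per cDC1 barcode (log scale) in the 4 libraries, with filled points for members whose cDC1 marker list is highest, open points for the others and a bar at the median. Right, the summed cDC1 marker list against the highest other marker list in each barcode (CPM + 10, log scales), with 121 of 158 points above the dashed line of equality; medians of depth run from 5983 UMIs in S/S baseline to 19770 UMIs in S/S TNF.

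Over all genes with at least 20 UMIs in a pair of libraries, 662 of 6023 were at least 2-fold higher (log2 ratio of 1 or more, pseudocount 1 CPM) in S/S TNF than in S/S baseline cDC1, or 11%, and 1084 were at least 2-fold lower, or 18%. In A/A, 1035 of 5959 genes were higher after TNF, or 17.4%, and 709 lower, or 11.9%. Over these genes the median log2 ratio was -0.16 in S/S and 0.10 in A/A. With median-of-ratios scaling the S/S median became 0.09 and the S/S split 947 higher and 775 lower, so small differences in S/S depend on the scaling. In core members 546 of 5154 genes (10.6%) were higher and 916 (17.8%) lower in S/S, and 973 of 4676 (20.8%) higher and 400 (8.55%) lower in A/A. These shares are the background for each gene list. Every ratio that follows is a log2 ratio of the first group named over the second, which is TNF over baseline unless the genotypes are compared. Fewer molecules per cell and fewer cells with the gene cannot be told apart in summed counts.

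The chemokine Cxcl9, which attracts T cells and NK cells that carry Cxcr3, was abundant in cDC1 after TNF and scarce at baseline. It had 1749 CPM in S/S TNF cells and 3304 CPM in A/A TNF cells, against 56.7 CPM in S/S baseline cells and 88.4 CPM in A/A baseline cells. The log2 ratio was 4.92 [4.33 to 5.59] in S/S and 5.21 [4.65 to 5.83] in A/A, beside lymphocyte ratios of 2.77 in S/S and 2.59 in A/A. Core members had 1831 CPM in S/S TNF and 3265 CPM in A/A TNF, against 9.65 CPM in S/S baseline and 0 CPM in A/A baseline, so most of the baseline Cxcl9 lay outside the core. Both TNF libraries stood far above both baseline libraries. Cxcl9 UMIs were found in 44 of 46 S/S TNF and 45 of 47 A/A TNF cells, against 5 of 39 S/S baseline and 2 of 26 A/A baseline cells, and in A/A baseline 1 barcode held most of the 25 UMIs. At an equal depth of 2000 UMIs, which left out 4 S/S baseline cells, 84.8% of S/S TNF and 93.6% of A/A TNF cells kept a Cxcl9 UMI, against 2.86% of S/S baseline and 7.69% of A/A baseline cells. In T gate barcodes, which should not make Cxcl9, the same shares were 1.19% in S/S TNF, 2.53% in A/A TNF, 0.414% in S/S baseline and 2.22% in A/A baseline, with 1, 2, 3 and 0 shallower barcodes left out. Median depths of these T gate barcodes were 9546.5, 10886, 8140 and 12861.5 UMIs. cDC1 also held more Cxcl9 than the other kept barcodes of the TNF libraries, which had 179.5 CPM in S/S and 245 CPM in A/A.

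Other chemokines were higher in the same direction, with fewer molecules. Cxcl11, a second Cxcr3 ligand, had 41 UMIs in S/S TNF cells and 92 in A/A TNF cells, against 0 in S/S baseline cells and 0 in A/A baseline cells, which is at least 6.09-fold higher in S/S and at least 9.98-fold higher in A/A against a floor of 3 UMIs per library. Cxcl16, a membrane-bound ligand of Cxcr6, had 319 CPM in S/S TNF cells and 354 CPM in A/A TNF cells, against 90.1 CPM in S/S baseline cells and 70.7 CPM in A/A baseline cells. Its lymphocyte ratios, 1.71 in S/S and 2.46 in A/A, were about as large as its cDC1 ratios of 1.81 and 2.31. Ccl17, a Ccr4 ligand of maturing dendritic cells, had 99 UMIs in S/S TNF cells and 163 in A/A TNF cells, against 0 in S/S baseline cells and 1 in A/A baseline cells, and 1 barcode held 76.1% of the A/A TNF molecules. Cxcl10 lay mostly outside the core: of its 100 S/S TNF and 151 A/A TNF UMIs few lay in core members, at 6.68 and 40.6 CPM there, against 0 CPM in S/S baseline and 0 CPM in A/A baseline core members. Over the chemokine list of 20 measured genes, 6 of 9 compared were at least 2-fold higher in S/S and 10 of 13 in A/A, against 3 and 2 lower. The median log2 ratio was 3.48 in S/S and 5.21 in A/A, or 2.61 and 2.31 with members at 0 UMIs placed at their bound. After the lymphocyte ratio was subtracted it was 0.10 in S/S and 2.05 in A/A. In core members 7 chemokines could be compared in S/S, 5 of them higher and 1 lower, and 5 in A/A, all 5 higher.

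Several costimulatory genes were at least 2-fold higher after TNF in both genotypes, Cd40 and Icosl among them, while others were not in A/A. Cd40, through which helper T cells license dendritic cells, had 183 CPM in S/S TNF cells and 148 CPM in A/A TNF cells, against 7.73 CPM in S/S baseline cells and 7.07 CPM in A/A baseline cells. The log2 ratio was 4.39 [2.93 to 6.16] in S/S and 4.21 [2.46 to 6.35] in A/A, with only 3 UMIs in S/S baseline and 2 in A/A baseline cells. The lymphocyte ratios were 0.43 and 0.47, so little of the difference was shared with T and B gate barcodes. Icosl, the ligand of the T cell costimulator Icos, had 98.8 CPM in S/S TNF cells and 95.5 CPM in A/A TNF cells, against 10.3 CPM in S/S baseline cells and 10.6 CPM in A/A baseline cells, with log2 ratios of 3.14 [1.81 to 4.75] in S/S and 3.06 [1.54 to 4.95] in A/A. Ly75 (DEC-205), an endocytic receptor that delivers antigen for presentation, had 113 CPM in S/S TNF cells and 106 CPM in A/A TNF cells, against 12.9 CPM in S/S baseline cells and 21.2 CPM in A/A baseline cells. Its log2 ratios were 3.03 [1.82 to 4.49] in S/S and 2.27 [1.12 to 3.64] in A/A, while lymphocytes went the other way at -0.89 and -0.86. Cd86, a ligand of Cd28, had 257 CPM in S/S TNF cells and 185 CPM in A/A TNF cells, against 92.7 CPM in S/S baseline cells and 152 CPM in A/A baseline cells. It was past 2-fold in S/S, at 1.46 [0.95 to 2.01], and not in A/A, at 0.28 [-0.21 to 0.80]. That difference between genotypes was not tested. Of the maturation and costimulation list without rule genes, 15 of 20 compared members were at least 2-fold higher and 1 lower in S/S (median 1.38), and 11 of 23 higher and 3 lower in A/A (median 0.68). In core members the counts were 15 of 18 higher in S/S and 14 of 18 in A/A, with none lower.

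Most compared NF-kB genes were at least 2-fold higher after TNF in both genotypes. Of 46 listed NF-kB and TNF response genes, 26 of 40 compared were at least 2-fold higher and 1 lower in S/S, with a median log2 ratio of 1.59. In A/A, 24 of 42 were higher and 1 lower, with a median of 1.26. After the lymphocyte ratio was subtracted, the medians were 0.82 in S/S and 0.63 in A/A, so part of the difference was shared with T and B gate barcodes. Relb, a subunit of the noncanonical NF-kB dimer, had 126 CPM in S/S TNF cells and 130.0 CPM in A/A TNF cells, against 12.9 CPM in S/S baseline cells and 14.1 CPM in A/A baseline cells. Nfkb2, which encodes its partner p100, had 91.9 CPM in S/S TNF cells and 119.6 CPM in A/A TNF cells, against 7.73 CPM in S/S baseline cells and 14.1 CPM in A/A baseline cells. Relb had log2 ratios of 3.20 [1.99 to 4.65] in S/S and 3.11 [1.78 to 4.78] in A/A, and Nfkb2 3.41 [1.93 to 5.20] and 2.99 [1.65 to 4.67], all above their lymphocyte ratios of 0.58 and 0.49 for Relb and 1.0 and 0.82 for Nfkb2. The feedback inhibitor Nfkbia (IkB-alpha) had 828 CPM in S/S TNF cells and 674 CPM in A/A TNF cells, against 180.3 CPM in S/S baseline cells and 120.2 CPM in A/A baseline cells, with lymphocyte ratios of 1.35 and 1.49 beside cDC1 log2 ratios of 2.19 [1.84 to 2.57] and 2.48 [1.98 to 3.02]. Tnfaip3 (A20), which shuts down TNF receptor signalling, had 81 UMIs in S/S TNF cells and 102 in A/A TNF cells, against 2 in S/S baseline cells and 7 in A/A baseline cells, or 3.93 [2.21 to 5.88] in S/S and 2.20 [1.13 to 3.47] in A/A. Traf1, an adaptor of TNF receptors, had 320.4 CPM in S/S TNF cells and 186 CPM in A/A TNF cells, against 30.9 CPM in S/S baseline cells and 60.1 CPM in A/A baseline cells, or 3.33 [2.52 to 4.26] in S/S and 1.62 [0.90 to 2.42] in A/A. Sdc4, a cell surface proteoglycan, had 158 UMIs in S/S TNF cells and 104 in A/A TNF cells, against 3 in S/S baseline cells and 2 in A/A baseline cells, or 4.39 [2.92 to 6.15] in S/S and 3.90 [2.15 to 6.04] in A/A. The kinase gene Pim1 had 469 CPM in S/S TNF cells and 578 CPM in A/A TNF cells, against 157 CPM in S/S baseline cells and 45.9 CPM in A/A baseline cells, and its log2 ratios were 1.57 [1.18 to 1.98] in S/S and 3.63 [2.85 to 4.52] in A/A. Tnfaip8 went the other way, at -1.41 [-1.87 to -0.95] in S/S and -1.17 [-1.71 to -0.63] in A/A, and was also lower in lymphocytes, at -0.75 and -0.58.

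**Figure D2:**
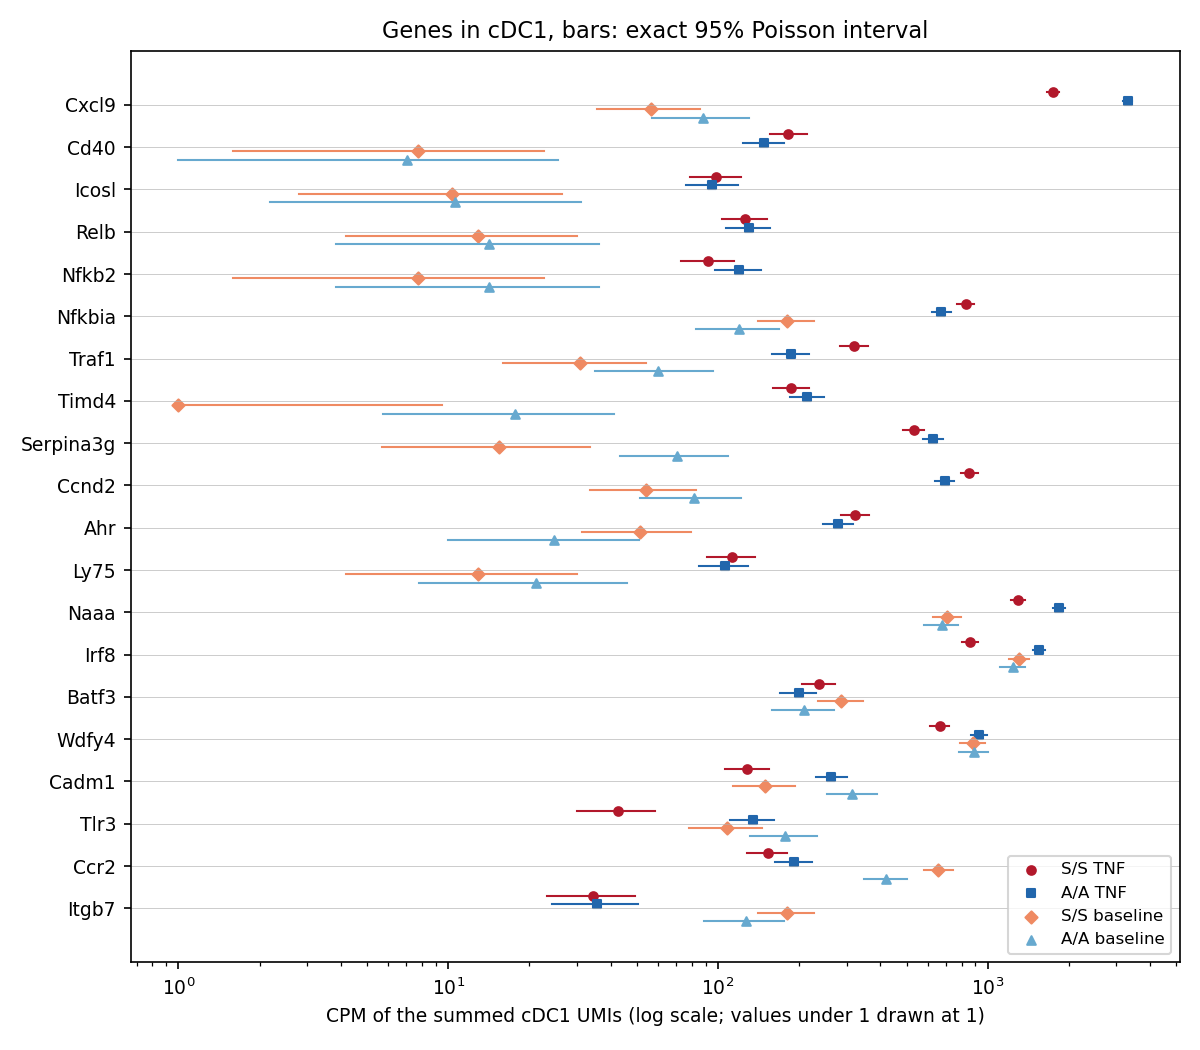
Level of 20 genes in summed cDC1 of each library (CPM, log scale; values under 1 are drawn at 1), with bars for exact 95% Poisson intervals. Cxcl9, Cd40, Icosl, Relb, Nfkb2, Nfkbia, Traf1, Timd4, Serpina3g, Ccnd2, Ahr and Ly75 lie to the right in both TNF libraries, Ccr2 and Itgb7 to the left, and Batf3 lies between 199 and 286 CPM in all 4.

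Promoters of 4 of these genes are shown because they hold a match to a kappaB motif, the letters that NF-kB dimers are known to bind. The motifs, all 10 bases long, were GGGA, any base and TTTCC; GGGA, any base and TTCCC; and GGGGA, any base and TTCC. They were searched on both strands in the 250 bases before each RefSeq start (GRCm38.p6), where matches of different motifs can overlap. Any of them occurred in 288 of 32851 mouse promoters, or 0.877%, and in 9 of the 50 promoters listed for the 39 matched list members. Those 9 belong to 8 genes, Nfkb2, Nfkbia, Nfkbid, Rel, Sdc4, Tnfaip3, Tnip1 and Tnip3. A match is a description of the letters, not evidence of binding. Each line reads 5′ to 3′ along the gene's strand and ends at the base before the start, with the matching bases in capitals. The coordinates are chr12:55492648-55492897 (minus strand) for Nfkbia, chr19:46304487-46304736 (plus) for Nfkb2, where 2 matches overlap, chr10:19015411-19015660 (minus) for Tnfaip3 and chr2:164443189-164443438 (minus) for Sdc4. Cxcl9, at chr5:92328080-92328329 (minus), is set beside them for its large TNF ratio. It has no match in this window.
Nfkbia: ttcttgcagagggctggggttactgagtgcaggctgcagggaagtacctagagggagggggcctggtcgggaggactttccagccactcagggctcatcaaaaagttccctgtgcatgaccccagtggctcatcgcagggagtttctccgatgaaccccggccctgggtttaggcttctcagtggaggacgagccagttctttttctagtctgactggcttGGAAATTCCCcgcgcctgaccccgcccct
Nfkb2: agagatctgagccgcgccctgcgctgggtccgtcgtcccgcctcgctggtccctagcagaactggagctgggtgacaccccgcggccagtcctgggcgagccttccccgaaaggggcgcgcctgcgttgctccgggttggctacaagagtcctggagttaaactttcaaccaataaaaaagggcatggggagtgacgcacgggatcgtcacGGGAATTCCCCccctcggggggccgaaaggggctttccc
Tnfaip3: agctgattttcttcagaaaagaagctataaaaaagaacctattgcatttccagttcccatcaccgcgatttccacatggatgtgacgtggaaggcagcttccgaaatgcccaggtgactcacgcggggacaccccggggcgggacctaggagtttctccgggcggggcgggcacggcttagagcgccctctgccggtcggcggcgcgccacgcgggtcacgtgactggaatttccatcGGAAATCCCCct
Sdc4: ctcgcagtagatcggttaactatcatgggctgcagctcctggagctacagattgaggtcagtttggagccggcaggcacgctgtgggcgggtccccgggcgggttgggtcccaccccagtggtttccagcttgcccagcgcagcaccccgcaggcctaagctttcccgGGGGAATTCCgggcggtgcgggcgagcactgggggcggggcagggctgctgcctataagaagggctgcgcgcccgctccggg
Cxcl9: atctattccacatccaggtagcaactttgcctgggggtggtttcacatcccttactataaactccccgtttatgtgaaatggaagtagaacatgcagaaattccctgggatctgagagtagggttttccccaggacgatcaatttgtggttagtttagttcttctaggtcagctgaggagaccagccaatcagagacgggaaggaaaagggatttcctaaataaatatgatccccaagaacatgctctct

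Genes that govern cell death were higher and lower. Bcl2l11 (Bim), a promoter of cell death, had 310.0 CPM in S/S TNF cells and 135 CPM in A/A TNF cells, against 36.1 CPM in S/S baseline cells and 31.8 CPM in A/A baseline cells, with log2 ratios of 3.07 [2.31 to 3.93] in S/S and 2.05 [1.09 to 3.16] in A/A. Birc3, an inhibitor of cell death in TNF signalling, had 187 CPM in S/S TNF cells and 193 CPM in A/A TNF cells, against 77.3 CPM in S/S baseline cells and 95.4 CPM in A/A baseline cells. Its log2 ratios were 1.27 [0.70 to 1.87] in S/S and 1.01 [0.42 to 1.65] in A/A, so a death-promoting and a death-inhibiting gene were both higher. The anti-death genes Bcl2a1b and Bcl2a1d had ratios of 2.91 and 1.61 in S/S and 2.08 and 1.73 in A/A, but they are near-identical copies whose reads may be split between them. Of the cell death list, 4 of 23 compared genes were higher and 6 lower in S/S, and 4 of 22 higher and 3 lower in A/A, beside 11 and 18% of all genes in S/S and 17.4 and 11.9% in A/A.

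Among the genes chosen by size alone, several were present in most TNF cells and lower at baseline. Serpina3g, a protease inhibitor of activated immune cells, had 532 CPM in S/S TNF cells and 628 CPM in A/A TNF cells, against 15.5 CPM in S/S baseline cells and 70.7 CPM in A/A baseline cells, and all 20 of the A/A baseline UMIs lay in 1 barcode. Ccnd2 (cyclin D2) had 853 CPM in S/S TNF cells and 693 CPM in A/A TNF cells, against 54.1 CPM in S/S baseline cells and 81.3 CPM in A/A baseline cells. Its log2 ratios were 3.96 [3.34 to 4.64] in S/S and 3.08 [2.48 to 3.74] in A/A, beside lymphocyte ratios of 0.88 and 0.78. At 2000 UMIs, 65.2% of S/S TNF and 53.2% of A/A TNF cDC1 kept a Ccnd2 UMI, against 0% of S/S baseline and 3.85% of A/A baseline cDC1; without thinning the shares were 82.6, 87.2, 17.9 and 23.1% in S/S TNF, A/A TNF, S/S baseline and A/A baseline cDC1. T cells express this gene, and 53.0, 60.1, 56.7 and 67.8% of thinned T gate barcodes held it in the same order. Mkrn1, a ubiquitin ligase, had 1307 CPM in S/S TNF cells and 883 CPM in A/A TNF cells, against 126 CPM in S/S baseline cells and 95.4 CPM in A/A baseline cells, present in 42 of 46 S/S TNF and 40 of 47 A/A TNF cells. Ahr, the receptor for dioxin-like and dietary ligands, had 322 CPM in S/S TNF cells and 278 CPM in A/A TNF cells, against 51.5 CPM in S/S baseline cells and 24.7 CPM in A/A baseline cells. It had a log2 ratio of 2.62 [1.97 to 3.33] in S/S and 3.44 [2.40 to 4.69] in A/A. The repressor Etv3 had 208 CPM in S/S TNF cells and 123 CPM in A/A TNF cells, against 18.0 CPM in S/S baseline cells and 21.2 CPM in A/A baseline cells, and the membrane protein gene Basp1 578 CPM in S/S TNF cells and 428 CPM in A/A TNF cells, against 118 CPM in S/S baseline cells and 81.3 CPM in A/A baseline cells. Timd4, a receptor for phosphatidylserine on dying cells that in liver is best known from Kupffer cells, had 163 UMIs in S/S TNF cells and 186 in A/A TNF cells, against 0 in S/S baseline cells and 5 in A/A baseline cells. It was at least 24.2-fold higher in S/S TNF cells, and its A/A log2 ratio was 3.52 [2.32 to 5.01]. Timd4 lay in 20 of 46 S/S TNF and 24 of 47 A/A TNF cells. In the core members it had 206, 252, 0 and 11.3 CPM, while the Kupffer marker Clec4f was 0 by the rule and the Kupffer list, of which Timd4 is one, summed to 799, 392, 549 and 467 CPM in all members.

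With the lymphocyte ratio subtracted, leading genes after TNF were Cd40, Ly75, Galnt7, Chd7, Gpr132, Mkrn1, Nabp1 and Ccnd2. Galnt7, which starts O-linked sugar chains, had 231 CPM in S/S TNF cells and 238 CPM in A/A TNF cells, against 51.5 CPM in S/S baseline cells and 56.6 CPM in A/A baseline cells, while its lymphocyte ratios were -0.70 and -1.29. Gpr132, a receptor for lysolipids and acid, had 121 CPM in S/S TNF cells and 127 CPM in A/A TNF cells, against 38.6 CPM in S/S baseline cells and 53.0 CPM in A/A baseline cells, with lymphocyte ratios of -1.15 and -1.21. Each of these 8 genes was more than 2-fold higher in cDC1 of both genotypes and none was so in the lymphocyte gates.

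Antigen presentation genes differed less. Of 32 genes of cross-presentation and MHC class I, 6 were at least 2-fold higher and 2 lower after TNF in S/S, and 8 higher and 2 lower in A/A. The medians were 0.39 and 0.35, beside -0.16 and 0.10 over all genes. Of all genes 11% were higher and 18% lower in S/S, and 17.4% higher and 11.9% lower in A/A. Tap1, a subunit of the transporter that brings peptides to MHC class I, had 208 CPM in S/S TNF cells and 271 CPM in A/A TNF cells, against 95.3 CPM in S/S baseline cells and 103 CPM in A/A baseline cells, with log2 ratios of 1.12 [0.60 to 1.66] and 1.40 [0.84 to 2.00]. Rab43, a vesicle GTPase needed for cross-presentation by mouse cDC1, had 69 UMIs in S/S TNF cells and 94 in A/A TNF cells, against 12 in S/S baseline cells and 8 in A/A baseline cells, or 1.33 [0.46 to 2.31] in S/S and 1.90 [0.89 to 3.09] in A/A. The lymphocyte ratios were near 0, at -0.22 and -0.02. The light chain B2m had log2 ratios of 0.71 [0.56 to 0.88] in S/S and 1.03 [0.87 to 1.20] in A/A, hardly beyond its lymphocyte ratios of 0.56 and 0.83. The immunoproteasome subunit Psmb8 was slightly lower, at -0.57 [-0.75 to -0.39] and -0.26 [-0.50 to -0.01], and Wdfy4, a protein needed for cross-presentation of cell-bound antigen, was near level at -0.41 [-0.60 to -0.21] in S/S and 0.07 [-0.14 to 0.28] in A/A. MHC class II genes were near level: 2 of 16 were at least 2-fold higher in S/S and 3 of 16 in A/A, none lower, and the invariant chain Cd74 had 20359.6 CPM in S/S TNF cells and 17225 CPM in A/A TNF cells, against 13345 CPM in S/S baseline cells and 11727 CPM in A/A baseline cells.

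The cytokines by which cDC1 are best known were at or near 0 at this time. Il12a and Ifnb1 had no UMI in any library, Il12b had 2 UMIs in S/S baseline cells and none in the other 3 groups, Il10 had 1 UMI in A/A TNF cells, and Il6 had 2 UMIs each in S/S TNF and A/A TNF cells. A count of 0 still allows up to 3 UMIs per library, so low levels were not detectable. The inflammatory cytokine Il1b had 478 CPM in S/S TNF cells and 353 CPM in A/A TNF cells, against 92.7 CPM in S/S baseline cells and 148 CPM in A/A baseline cells, but its lymphocyte ratios of 3.64 and 2.70 exceeded its cDC1 ratios of 2.35 and 1.24. Larger ratios in lymphocytes also held for the metallothioneins Mt1 and Mt2, at 4.25 and 5.26 in S/S and 5.03 and 4.85 in A/A, with lymphocyte ratios of 4.28, 5.53, 5.74 and 6.20. None of these 3 genes was further from baseline in cDC1 than in the lymphocyte gates.

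The levels of some genes that define the lineage differed between the genotypes after TNF. Their presence is no result, since the rule required Xcr1 and Clec9a and cells without them could not be members. The rule also left out TNF barcodes with 5 or more UMIs of Ccr7, Fscn1 and Ccl22. Irf8 had 476 CPM in those S/S TNF barcodes and 320.0 CPM in those A/A TNF barcodes. The levels below hold for members alone. Naaa, a lysosomal enzyme abundant in cDC1, had 1293 CPM in S/S TNF cells and 1836 CPM in A/A TNF cells, against 708 CPM in S/S baseline cells and 675 CPM in A/A baseline cells. Irf8 had 860.1 CPM in S/S TNF cells and 1548 CPM in A/A TNF cells, against 1306 CPM in S/S baseline cells and 1237 CPM in A/A baseline cells. Its log2 ratio was -0.60 [-0.77 to -0.44] in S/S and 0.32 [0.15 to 0.50] in A/A. Batf3 had a log2 ratio of -0.27 [-0.61 to 0.07] and -0.07 [-0.50 to 0.38], with intervals that include 0 in both genotypes. Zbtb46, a factor of conventional dendritic cells, had 12 UMIs in S/S TNF cells and 71 in A/A TNF cells, against 28 in S/S baseline cells and 25 in A/A baseline cells, or -2.31 [-3.34 to -1.33] in S/S and -0.11 [-0.78 to 0.60] in A/A. Tlr3, which senses double-stranded RNA of dead or infected cells, had 42.5 CPM in S/S TNF cells and 135 CPM in A/A TNF cells, against 108 CPM in S/S baseline cells and 177 CPM in A/A baseline cells, or -1.33 [-1.99 to -0.67] in S/S and -0.39 [-0.88 to 0.11] in A/A. Mycl, a Myc family factor of dendritic cells, had 199 CPM in S/S TNF cells and 197 CPM in A/A TNF cells, against 74.7 CPM in S/S baseline cells and 67.2 CPM in A/A baseline cells, with log2 ratios of 1.40 [0.83 to 2.01] and 1.54 [0.86 to 2.29]. Of the cDC1 identity list, 4 of 26 compared genes were higher and 3 lower in S/S, and 11 of 29 higher and 2 lower in A/A, with medians of 0.34 and 0.60. Over all genes 11% were higher and 18% lower in S/S, and 17.4% higher and 11.9% lower in A/A.

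Interferon-stimulated genes were lower after TNF in S/S cDC1. None of 33 compared was at least 2-fold higher and 16 were lower in S/S, with a median log2 ratio of -0.77. Over all genes in S/S, 11% were higher and 18% lower. In A/A 3 of 30 interferon-stimulated genes were higher and 2 lower, with a median of -0.15, beside 17.4% and 11.9% of all genes. In core members the counts were 0 higher and 14 lower of 25 in S/S, and 4 higher and 4 lower of 21 in A/A. The difference between genotypes was not tested. Ifi27l2a, an interferon-induced mitochondrial protein, was lower in both: it had 139 CPM in S/S TNF cells and 52.9 CPM in A/A TNF cells, against 873 CPM in S/S baseline cells and 513 CPM in A/A baseline cells, or -2.64 [-2.95 to -2.34] in S/S and -3.25 [-3.75 to -2.77] in A/A, beside lymphocyte ratios of -0.95 and 0.02. Ifi44 had 1 UMI in S/S TNF cells and 3 in A/A TNF cells, against 32 in S/S baseline cells and 12 in A/A baseline cells, a pattern that the lymphocytes shared, at -4.10 and -2.47. Samhd1, which breaks down nucleotides, had 74.6 CPM in S/S TNF cells and 194 CPM in A/A TNF cells, against 245 CPM in S/S baseline cells and 254 CPM in A/A baseline cells, so it was at -1.70 [-2.17 to -1.23] in S/S and at -0.39 [-0.79 to 0.03] in A/A. The nuclear body gene Sp100 behaved alike, at -1.91 [-2.36 to -1.46] and -0.27 [-0.80 to 0.29], although lymphocytes had -1.24 and -1.16. Ly6e went the other way, at 0.44 [0.23 to 0.65] in S/S and 1.13 [0.90 to 1.36] in A/A.

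Some receptors that place dendritic cells in tissue were lower after TNF, among them Ccr2, Itgb7 and Gpr183. Ccr2, which draws cells from the blood toward inflamed tissue, had 153 CPM in S/S TNF cells and 191 CPM in A/A TNF cells, against 657 CPM in S/S baseline cells and 421 CPM in A/A baseline cells, or -2.10 [-2.41 to -1.79] in S/S and -1.14 [-1.48 to -0.79] in A/A, and -0.58 in A/A core members. Itgb7, an integrin chain that pairs with Itgae on cDC1, had 34.4 CPM in S/S TNF cells and 35.7 CPM in A/A TNF cells, against 180.3 CPM in S/S baseline cells and 127 CPM in A/A baseline cells. Its log2 ratios were -2.35 [-3.00 to -1.73] in S/S and -1.81 [-2.53 to -1.08] in A/A, and the oxysterol receptor gene Gpr183 stood at -3.16 [-4.21 to -2.20] and -3.50 [-4.81 to -2.27]. Both lay further below 0 than the lymphocyte ratios of -0.49 and -0.30 for Itgb7 and -1.55 and -1.35 for Gpr183. Of the homing list, 5 of 22 compared genes were higher and 7 lower in S/S, beside 11% and 18% of all genes. In A/A 4 of 24 were higher and 7 lower, beside 17.4% and 11.9% of all genes, so the list had members in both directions. In A/A core members 4 were higher and 2 lower of 18.

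Many of the lowest ratios were shared with lymphocytes. Hdac9, a deacetylase gene, had log2 ratios of -5.32 [-6.28 to -4.46] in S/S and -3.79 [-4.42 to -3.21] in A/A cDC1, and -2.66 and -4.41 in the lymphocyte gates. Bach2, a repressor best known from B and T cells, had 1 UMI in S/S TNF cells and 2 in A/A TNF cells, against 93 in S/S baseline cells and 35 in A/A baseline cells, with lymphocyte ratios of -3.22 and -3.77. The part of the counting version in such ratios was not tested. Others were lower in cDC1 and level or higher in lymphocytes. Fmnl2, an actin nucleator, had 72.3 CPM in S/S TNF cells and 207 CPM in A/A TNF cells, against 415 CPM in S/S baseline cells and 452 CPM in A/A baseline cells, beside lymphocyte ratios of 1.98 and 2.77. Pid1, an adaptor named for its part in insulin signalling, had 59.7 CPM in S/S TNF cells and 69.0 CPM in A/A TNF cells, against 422 CPM in S/S baseline cells and 569 CPM in A/A baseline cells, with lymphocyte ratios of 0.62 and 1.14. Ccnd1 (cyclin D1) had 47.1 CPM in S/S TNF cells and 119.6 CPM in A/A TNF cells, against 183 CPM in S/S baseline cells and 318 CPM in A/A baseline cells, opposite in direction to Ccnd2, and the chaperone Hspa8 339 CPM in S/S TNF cells and 379.5 CPM in A/A TNF cells, against 1295 CPM in S/S baseline cells and 1523 CPM in A/A baseline cells. Sdf2l1, a part of the protein folding machinery of the endoplasmic reticulum, stood at -1.71 [-2.23 to -1.19] in S/S and -1.32 [-1.97 to -0.66] in A/A, against 0.56 and 0.97 in lymphocytes.

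**Figure D3:**
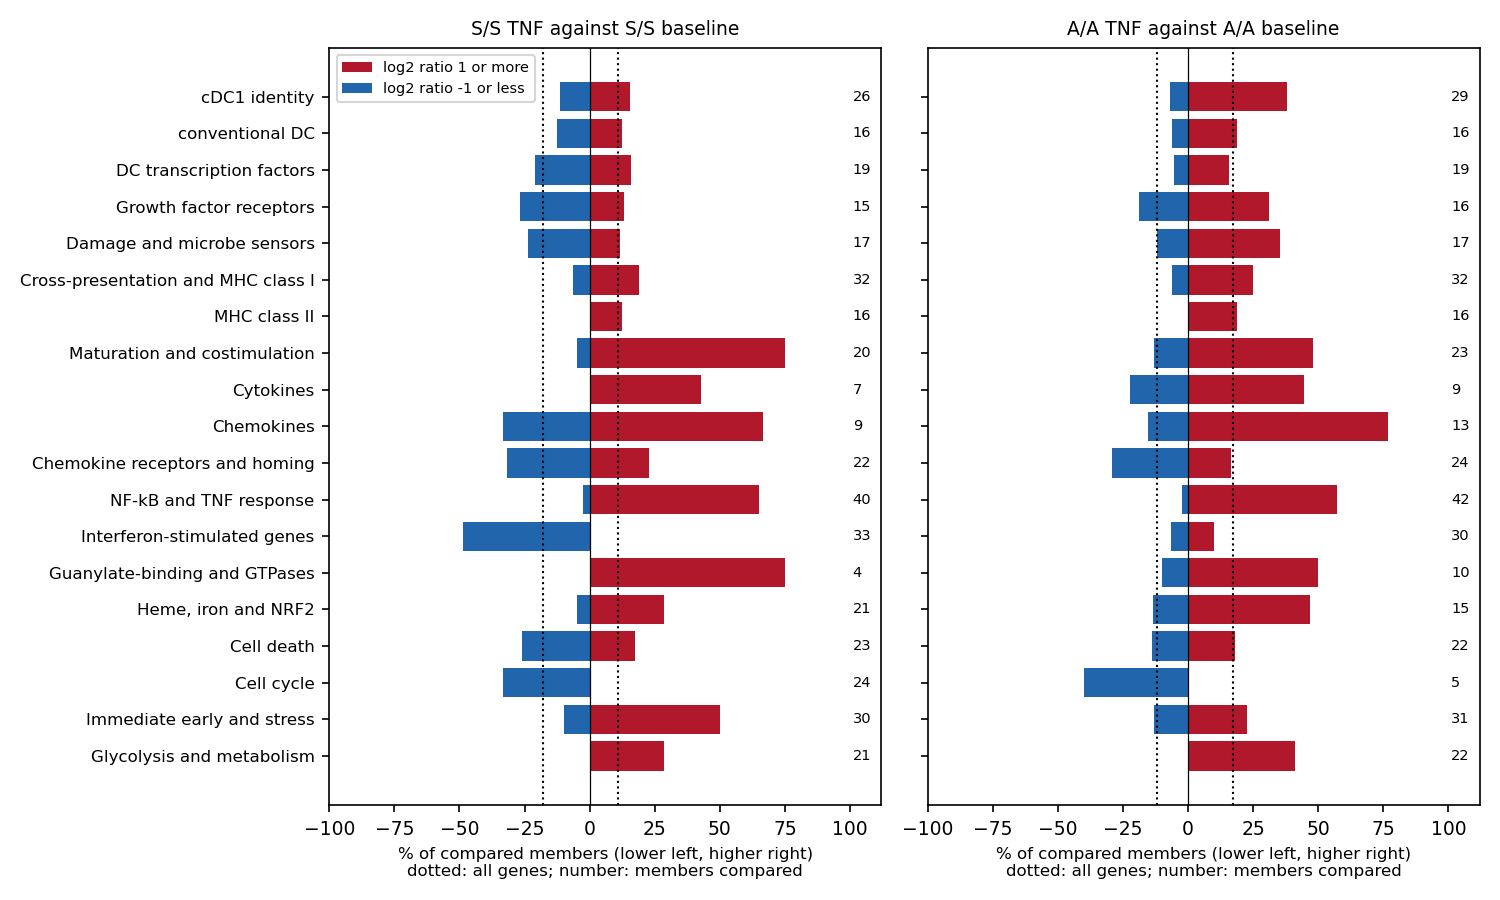
Share of compared members of 19 gene lists with a log2 ratio of 1 or more (right, red) or -1 or less (left, blue) after TNF, in S/S and in A/A cDC1; the number at the edge counts the members compared and dotted lines mark all genes (11% higher and 18% lower in S/S, 17.4% and 11.9% in A/A). NF-kB genes (26 of 40 and 24 of 42), chemokines, maturation genes and the few guanylate-binding genes compared (3 of 4 and 5 of 10) reach far to the right, and interferon-stimulated genes reach left in S/S (16 of 33).

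The rule capped the UMIs of Ccr7, Fscn1 and Ccl22, which are known from mature dendritic cells, and cells on both sides of its limit are described here. No UMI of the 3 genes was found in 14 of 46 members in S/S TNF, 21 of 47 in A/A TNF, 35 of 39 in S/S baseline and 24 of 26 in A/A baseline. These are rule genes and the baseline cells were shallower, so the counts carry no comparison. Beyond the limit of the rule, with 5 or more such UMIs, lay 33 further barcodes in S/S TNF and 10 in A/A TNF, and none in either baseline library. They were 0.597% [0.411 to 0.837] of kept barcodes in S/S TNF and 0.155% [0.0744 to 0.285] in A/A TNF, and the deeper a barcode, the more such UMIs it can show: median depths at 0, 1 to 4 and 5 or more UMIs were 15646, 21394.5 and 28236 in S/S TNF and 19674, 16521.5 and 21400 in A/A TNF. The following levels run over those 3 steps and are a description without a test. Ccr7 had 0, 15.7 and 236 CPM in S/S but 0 CPM at all 3 steps in A/A, where Ccl22 (0, 66.0 and 657 CPM) and Fscn1 (0, 49.5 and 164 CPM) set the steps. Ccl17 had 0, 155 and 971 CPM in S/S and 47.1, 335 and 714 CPM in A/A. Il4i1, an amino acid oxidase of mature dendritic cells, had 0, 7.84 and 95.7 CPM in S/S and 4.49, 7.08 and 108 CPM in A/A. Both were highest outside the limit in either genotype. Some lineage genes ran the other way. Irf8 had 1195, 737 and 476 CPM in S/S and 1791, 1293 and 320.0 CPM in A/A, Wdfy4 had 681, 657 and 449 CPM in S/S and 1077, 778 and 129.7 CPM in A/A, and Naaa had 1414, 1249 and 782 CPM in S/S and 2224, 1427 and 528 CPM in A/A. Cadm1 had 129, 129 and 139 CPM in S/S and 359, 163 and 90.8 CPM in A/A, so it ran that way in A/A alone. The barcodes beyond the limit were unlike in their markers. Wdfy4 was found in 87.9% of them in S/S and 40% in A/A, Naaa in 90.9 and 40%, and Cadm1 in 72.7 and 10%. Irf8 was found in 78.8 and 80%, and H2-Ab1 in 100 and 60%. Whether other cells set the A/A levels there was not tested. Cd83, a maturation marker, had 64.3, 69.0 and 367 CPM in S/S and 94.3, 42.5 and 34.6 CPM in A/A, so of these 6 levels that of the S/S barcodes beyond the limit stood highest. Il12b appeared in the same S/S barcodes, at 32.3 CPM, and was at 0 at the other 5 steps. Other genes that were higher after TNF differed between the genotypes in their order over the steps: Cd40 had 163, 189.8 and 250.2 CPM in S/S and 123, 175 and 60.5 CPM in A/A. Ly75 had 85.7, 122 and 185 CPM in S/S and 144, 66.0 and 17.3 CPM in A/A, and Bcl2l11 had 159, 366 and 370.4 CPM in S/S and 144, 125 and 21.6 CPM in A/A. All 3 were highest in S/S and lowest in A/A beyond the limit, where the A/A values rest on 10 barcodes of which few held Cadm1. Cxcl9 followed no single order: it had 1495, 1842 and 1833 CPM in S/S and 3104, 3515 and 791 CPM in A/A. Relb had 94.3, 138 and 210.2 CPM in S/S and 128, 132 and 160.0 CPM in A/A.

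**Figure D4:**
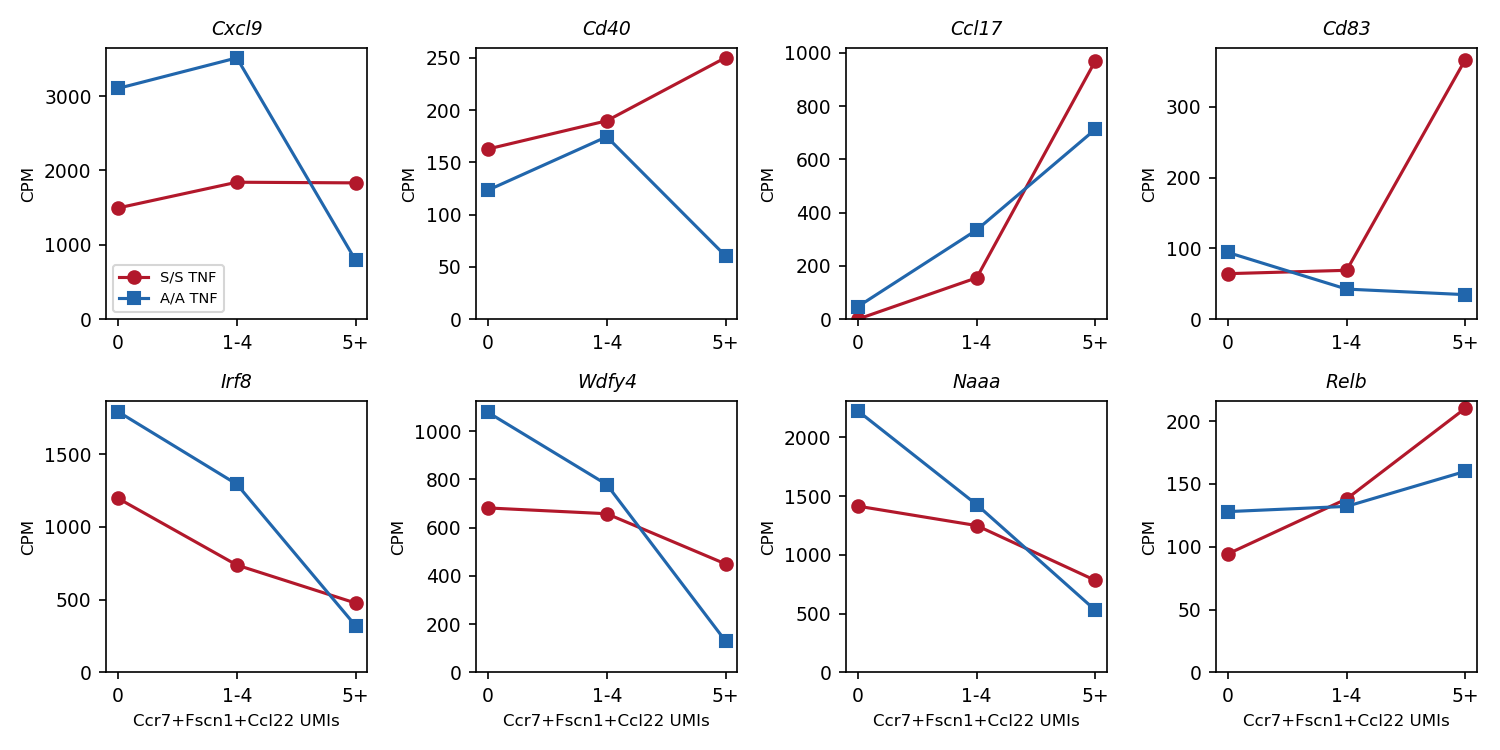
Summed level (CPM) of 8 genes in barcodes of the S/S TNF and A/A TNF libraries with 0, 1 to 4 or at least 5 UMIs of Ccr7, Fscn1 and Ccl22 together, the last step being outside the rule (33 and 10 barcodes). Ccl17 climbs over the steps to 971 CPM in S/S and 714 CPM in A/A, while Irf8 ends at 476 and 320.0 CPM; no error is drawn, since cells of 1 library are not replicates.

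Between the genotypes after TNF, 227 of 6842 genes were at least 2-fold higher in S/S TNF than in A/A TNF cDC1, or 3.32%, and 625 lower, or 9.13%. At baseline 417 of 4304 were higher in S/S, or 9.69%, and 279 lower, or 6.48%. The medians were -0.16 and 0.10. With median-of-ratios scaling the splits were 291 higher and 449 lower after TNF, and 319 higher and 351 lower at baseline. In core members 195 of 5935 (3.29%) were higher and 540 (9.1%) lower after TNF, and 454 of 3149 (14.4%) higher and 120 (3.81%) lower at baseline. Both libraries of a pair share the counting version here. Each genotype is still 1 library, so mouse, preparation and genotype cannot be told apart.

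Several genes of cDC1 function were lower in S/S at both times. Cadm1, an adhesion molecule typical of cDC1, had 129 CPM in S/S TNF cells against 263 CPM in A/A TNF cells, and 149 CPM in S/S baseline cells against 315 CPM in A/A baseline cells, with log2 ratios of -1.03 [-1.36 to -0.70] after TNF and -1.07 [-1.57 to -0.58] at baseline. Tlr3 had a log2 ratio of -1.64 [-2.20 to -1.10] after TNF and -0.70 [-1.32 to -0.09] at baseline. Cd207 (langerin), a C-type lectin of some cDC1, had 58.6 CPM in S/S TNF cells against 212 CPM in A/A TNF cells, and 30.9 CPM in S/S baseline cells against 84.8 CPM in A/A baseline cells. These 3 genes kept their direction in core members, at -1.08, -1.72 and -2.21 after TNF and -1.29, -0.98 and -1.91 at baseline. The baseline value of Cd207 rests on 12 UMIs in S/S and 24 in A/A, of which 1 A/A barcode held 58.3%. With the top barcode of each library left out, its log2 ratio was -0.44 at baseline. Of the identity list, 1 of 28 was higher and 5 lower after TNF (median -0.45), beside 3.32% and 9.13% of all genes. At baseline 1 of 27 was higher and 3 lower (median 0.07), beside 9.69% and 6.48% of all genes. Id2 and Batf3 of this list were not lower in S/S. The median per cell of Id2 was 1706 CPM in S/S TNF and 1335 CPM in A/A TNF cells, and 932 and 671 CPM at baseline. That of Batf3 was 190 and 171 CPM after TNF, and 179 and 54.9 CPM at baseline. For Irf8 the log2 ratio was -0.85 [-0.98 to -0.72] in S/S TNF against A/A TNF cells and 0.08 [-0.12 to 0.28] at baseline. Zbtb46 had a ratio of -2.48 [-3.42 to -1.63] after TNF and -0.29 [-1.11 to 0.54] at baseline. Arsb, a lysosomal sulfatase, had 36.7 CPM in S/S TNF cells against 101 CPM in A/A TNF cells, and 100.4 CPM in S/S baseline cells against 229.7 CPM in A/A baseline cells. The transcription factor Klf6 had 191 CPM in S/S TNF cells against 358 CPM in A/A TNF cells, and 77.3 CPM in S/S baseline cells against 184 CPM in A/A baseline cells.

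Of the genes chosen by size in the TNF libraries, Apol7c stood lowest in S/S. It encodes an apolipoprotein reported in mouse dendritic cells to open antigen-holding vesicles, and it had 27 UMIs in S/S TNF cells and 202 in A/A TNF cells, against 8 in S/S baseline cells and 0 in A/A baseline cells. The log2 ratio of S/S TNF against A/A TNF was -2.87 [-3.48 to -2.30], and in A/A the gene was at least 21.9-fold higher after TNF than at baseline. Its A/A TNF molecules lay in 17 of 47 cells, and its S/S TNF ones in 6 of 46, with 55.6% in 1 barcode. Pak1, a kinase of the actin skeleton, had 48.2 CPM in S/S TNF and 151 CPM in A/A TNF cells, or -1.62 [-2.15 to -1.12]. Fos, an immediate early factor, had 62.0 and 200.1 CPM, or -1.67 [-2.14 to -1.23], and the receptor kinase Grk2 64.3 and 181 CPM, or -1.48 [-1.94 to -1.03]. The lymphocyte ratios between these libraries were -0.48, 0.03 and -0.10 for the 3 genes. Higher in S/S TNF were Pdcd4, a brake on translation, with 339.9 against 106 CPM, or 1.67 [1.33 to 2.02], and Rgs1, a brake on chemokine receptor signalling, with 156 against 46.0 CPM, or 1.74 [1.23 to 2.28]. Bcl2l11 had a log2 ratio of 1.20 [0.88 to 1.52] and Ddit4, a stress-induced inhibitor of mTORC1, 1.35 [0.79 to 1.93]. Of the lymphocyte ratios, 0.09, 0.99, -0.05 and 0.21, only that of Rgs1 came near a 2-fold difference. Cldnd1, a claudin-like membrane protein, was higher in S/S both after TNF, at 1.10 [0.65 to 1.57], and at baseline, at 1.59 [0.82 to 2.43].

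More interferon-stimulated genes were lower than higher in S/S after TNF, and more were higher than lower at baseline. After TNF 2 of 31 were at least 2-fold higher in S/S and 8 lower, beside 3.32% higher and 9.13% lower of all genes. At baseline 5 of 30 were higher and 3 lower, beside 9.69% and 6.48% of all genes. The list thus leaned the way that all genes did at both times, and its direction is not particular to interferon-stimulated genes. In core members the counts were 2 higher and 1 lower of 27 after TNF and 8 higher and 0 lower of 20 at baseline, so most of the lower counts after TNF rest on members outside the core. Slfn5 had 117 CPM in S/S TNF cells against 145 CPM in A/A TNF cells, and 159.7 CPM in S/S baseline cells against 49.5 CPM in A/A baseline cells, or -0.30 [-0.69 to 0.08] after TNF and 1.67 [0.83 to 2.60] at baseline. Ifi203 had a log2 ratio of -0.37 [-0.98 to 0.24] after TNF and 1.33 [0.71 to 1.98] at baseline. Over the chemokine list, 7 of 14 were lower and none higher in S/S TNF, with a median of -1.02. In core members the median was 0.50, with 4 of 8 higher and 2 lower, so no direction is given for that list.

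Both ferritin chains were higher in S/S cDC1. The light chain was also higher in S/S lymphocytes, and no lymphocyte ratio is given here for the heavy chain. Ftl1, the ferritin light chain, had 3036 CPM in S/S TNF cells against 1402 CPM in A/A TNF cells, and 2840.5 CPM in S/S baseline cells against 382 CPM in A/A baseline cells, and the heavy chain Fth1 had 4286 CPM in S/S TNF cells against 2023 CPM in A/A TNF cells, and 4017 CPM in S/S baseline cells against 1912 CPM in A/A baseline cells. For Fth1, 1 barcode held 24.9% of the S/S baseline UMIs, and medians per cell were 3107 CPM in S/S baseline and 2046 CPM in A/A baseline. The lymphocyte ratios of S/S against A/A were 0.98 after TNF and 2.91 at baseline for Ftl1, close to the cDC1 ratios of 1.11 and 2.89. Of the heme, iron and NRF2 list, 10 of 23 compared were higher after TNF and 5 of 13 at baseline, beside 3.32% and 9.69% of all genes, and none was lower. The list medians were 0.14 and -0.29 once lymphocyte ratios were subtracted. In core members 7 of 19 were higher and 1 lower after TNF, and 3 of 7 higher at baseline. The list median after TNF was 0.74 in all members and 0.22 in core members. Hemoglobin was found in cDC1 and T gate barcodes alike. At 2000 UMIs a Hba-a1 UMI was present in 43.5% of S/S TNF, 2.13% of A/A TNF, 48.6% of S/S baseline and 0% of A/A baseline cDC1, against 41.9, 2.99, 42.1 and 1.39% of T gate barcodes, cells that do not make hemoglobin. Without thinning the cDC1 shares were 89.1, 14.9, 87.2 and 3.85%, and 1 barcode held 93.5% of the S/S TNF molecules. The cDC1 shares were close to those of the T gate barcodes, and no expression in cDC1 is read from them. Where these UMIs came from was not tested. The level of free RNA itself was not measured.

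Proliferation genes set the libraries apart through very few cells. The UMIs of 12 mitotic genes, Mki67 and Top2a among them, summed to 340 in S/S TNF and 8 in A/A TNF cDC1, and to 281 in S/S baseline and 50 in A/A baseline cDC1. A single barcode held 313 of those in S/S TNF and another 238 in S/S baseline, against a highest of 2 in A/A TNF and 26 in A/A baseline. At least 3 of the 12 genes were detected in 2 of 46 S/S TNF cells (4.35% [0.531 to 14.8]), 0 of 47 A/A TNF cells (0% [0 to 7.55]), 3 of 39 S/S baseline cells (7.69% [1.62 to 20.9]) and 2 of 26 A/A baseline cells (7.69% [0.946 to 25.1]). These intervals overlap. In T gate barcodes the shares were 8.27% in S/S TNF, 3.44% in A/A TNF, 6.32% in S/S baseline and 3.33% in A/A baseline. The cell cycle list had a median log2 ratio of 1.21 in S/S TNF against A/A TNF, with 11 of 18 compared genes higher and 1 lower, and of 1.07 at baseline, with 7 of 13 higher, beside 3.32% and 9.69% of all genes higher. With the top barcode of each gene and library left out, the first became -0.04, and without the deepest member of each library the second became -0.29. Neither was found to turn below 0 under the setting quoted for the other. These medians thus rest in part on single barcodes. H2az1, a histone variant found in 43 of 46 S/S TNF and 46 of 47 A/A TNF cells, does not: it had 2592 CPM in S/S TNF cells against 1355 CPM in A/A TNF cells, and 1131 CPM in S/S baseline cells against 661 CPM in A/A baseline cells, with log2 ratios of 0.94 [0.83 to 1.04] and 0.77 [0.52 to 1.03] and lymphocyte ratios of 0.58 and 1.03.

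**Figure D5:**
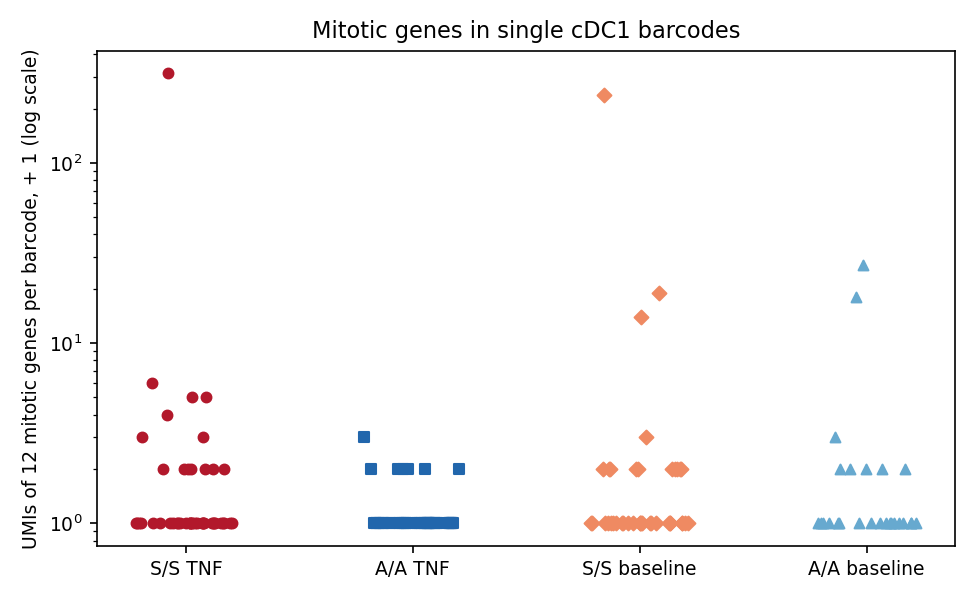
UMIs of 12 mitotic genes in each cDC1 barcode (plus 1, log scale) by library. Single barcodes hold 313 UMIs in S/S TNF and 238 in S/S baseline, the highest in A/A TNF holds 2, and most barcodes hold none or 1.

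Several of the largest ratios between the genotypes at baseline came from members outside the core. Endothelial genes led there: Ptprb had 102 UMIs in S/S baseline and 0 in A/A baseline cells, with 99.0% in 1 barcode and 0 CPM in core members. Xcl1, the ligand of Xcr1 made by NK and T cells, had 3 UMIs in S/S baseline and 138 in A/A baseline cells, of which 99.3% lay in 1 barcode and none in core members. Genes spread over core members included Havcr2 (Tim-3), a checkpoint receptor of cDC1, with 80.4 CPM in S/S TNF cells against 95.5 CPM in A/A TNF cells, and 51.5 CPM in S/S baseline cells against 177 CPM in A/A baseline cells. Its log2 ratio was -1.76 [-2.57 to -0.99] at baseline and -0.24 [-0.72 to 0.23] after TNF. Sod1, a superoxide dismutase, had log2 ratios of -1.42 [-2.12 to -0.74] at baseline and -0.57 [-0.84 to -0.30] after TNF, and Gapdh, an enzyme of glycolysis, 1.48 [1.14 to 1.83] and 0.65 [0.46 to 0.84]. Of the glycolysis list 5 of 14 were higher and none lower at baseline, beside 9.69% and 6.48% of all genes. After TNF 2 of 24 were higher and 3 lower, beside 3.32% and 9.13% of all genes.

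The TNF ratios of S/S and A/A were set beside each other last. Timd4 had 0 UMIs in S/S baseline and 5 in A/A baseline cells, so its larger S/S ratio turns on those 5 molecules. Adam8, a membrane protease, had log2 ratios of 4.23 [2.77 to 6.0] in S/S and 1.94 [1.27 to 2.68] in A/A, with 3 UMIs in S/S baseline and 19 in A/A baseline cells. Rasgef1b, a Ras activator, had log2 ratios of 2.09 [1.22 to 3.09] in S/S and -0.64 [-1.27 to 0.03] in A/A, and 2.01 and 0.58 in core members. In the other direction, Gatm, an enzyme of creatine synthesis, had log2 ratios of 0.23 [-0.15 to 0.63] in S/S and 2.71 [1.98 to 3.55] in A/A, and Fkbp5, a chaperone induced by glucocorticoids, 1.16 [0.63 to 1.72] and 3.33 [1.99 to 4.99]. Both had the lowest level in A/A baseline cells, with 53.0 CPM of Gatm against 201 CPM in S/S baseline, and 14.1 CPM of Fkbp5 against 90.1 CPM. For Adam23 the S/S baseline level came from 1 barcode, and core members had 58.8 CPM in S/S TNF and 142 CPM in A/A TNF, against 0 CPM in S/S baseline and 11.3 CPM in A/A baseline. None of these differences was tested.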

How the data were processed

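RNA of liver cells was captured with the 10x 3' v3.1 kit, per the labels' protocols, in 4 libraries, each pooled from 2 mice. The authors deposited UMI counts per gene and barcode, made with Cell Ranger 6.1.2 (both TNF libraries) or 7.1.0 (both baseline libraries), per the file headers; the genome build is mm39 per the submitters' processing notes, and whether intronic reads were counted is not given in the sources used here. Deposited barcodes numbered 5848 in S/S TNF, 6531 in A/A TNF, 4983 in S/S baseline and 3230 in A/A baseline, and 5528, 6452, 4366 and 2830 passed 300 genes and at most 20% mitochondrial UMIs. 

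From these counts, UMIs of the cDC1 of a library were summed (870842, 869515, 388312 and 282925 UMIs in the same order) and divided by their total to give CPM. The ribosomal RNA entry Rn18s-rs5, 12.3, 15.1, 5.52 and 14.6% of these UMIs, stayed in the totals, and leaving it out was an alternative. Genes with at least 20 UMIs in a pair were compared by the log2 ratio with a pseudocount of 1 CPM and called past the fold at 1 or more. Intervals are exact (Poisson for levels, Clopper-Pearson for shares and for the split of UMIs between libraries) at 95% and cover counting error only. Each group is 1 library, and no test was made. Shares of cells were also taken at 2000 UMIs per barcode. Doublets were treated only by the excluded genes of the rule.

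Members and gene lists were chosen with earlier results of these data known. Named genes were members of the cDC1 identity and marker lists, the 10 genes at either end of each comparison, of both TNF and of both genotype comparisons together and of TNF ratios after subtraction of the lymphocyte ratio (at least 50 UMIs in the pair, 100 CPM in the higher library and no less there than in other barcodes), the 5 largest differences of TNF ratios each way, and up to 8 and 4 list members by size of TNF and genotype ratios, and list members whose role orders the text whatever their values. The core members and 3 of the 16 alternatives (core members, top barcode of each gene left out, deepest member left out) were chosen after seeing the data. On a simulated S/S TNF comparison, 200 genes were changed 4- or 8-fold up or down, and 150 of them could be compared. All 150 passed the 2-fold limit, which changes of that size made nearly certain. Of 5861 unchanged genes 262 passed (4.47%). The counts were Poisson draws, without UMIs clumped in single barcodes or differences between mice. The 4.47% is therefore not a rate of false calls in these data. Python 3.11.15 was used with numpy 2.4.6, scipy 1.17.1, pandas 2.3.3 and matplotlib 3.10.9.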

Additional observations from a re-analysis of the deposited data

Results flagged for a closer look

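Cd80, a ligand of the T cell receptors Cd28 and Ctla4, differed from its baseline in opposite directions in the 2 genotypes over all members. It had 22 UMIs in S/S TNF cells and 18 in A/A TNF cells, against 2 in S/S baseline cells and 14 in A/A baseline cells. Its log2 ratio of TNF over baseline was 2.09 [0.26 to 4.11] in S/S and -1.22 [-2.27 to -0.13] in A/A. In A/A core members 0 of 18 compared genes of the maturation and costimulation list, which holds Cd80, were at least 2-fold lower. There Cd80 was either not 2-fold lower or not compared. Each group is 1 library, the S/S baseline value rests on 2 molecules, and the difference between the genotypes was not tested.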

How the results depend on the processing

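No paired analysis was possible because each group is 1 library and the shared replicate number is 1 in all of them, and for the same reason no library could be left out. Of 217 named-gene ratios past the fold, 193 kept their direction under every setting in which the gene could be compared, and 124 stayed past the fold. A setting in which a gene fell short of the minimum was passed over. Thinning, for one, compared only 639 to 1157 genes in a pair, so these counts overstate how many ratios were checked under all settings. Of the counts of genes past the fold, 41 of 124 moved by over 1.5 times.

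Compared at 1 UMI or more, genes past the fold numbered 3449 higher and 4146 lower in S/S TNF against baseline, 4758 and 3268 in A/A TNF, 2368 and 3248 in S/S against A/A after TNF and 3916 and 2462 at baseline. At 100 UMIs or more they numbered 174 and 162, 229 and 100, 35 and 78, and 40 and 22 in the same order. With all members thinned to 2000 UMIs they numbered 166 and 99, 204 and 71, 55 and 95, and 72 and 42. With each cell given equal weight, 1136 were higher in S/S TNF, 1662 higher in A/A TNF and 515 lower in S/S at baseline. With barcodes carrying 8 further markers left out, 400 were lower in S/S TNF, 657 higher and 393 lower in A/A TNF, 131 higher in S/S after TNF and 117 higher at baseline. With lymphocyte ratios subtracted, 629 were lower in S/S TNF. A pseudocount of 10 CPM gave 115 higher and 238 lower in S/S after TNF. Settings chosen after seeing the data gave 400 lower in A/A TNF and 120 lower in S/S at baseline (core members), and 645 lower in S/S TNF, 380 lower in A/A TNF, 144 higher in S/S after TNF and 166 lower at baseline (top barcode of each gene left out). The minimum of UMIs sets how many genes are compared. For the other settings the cause was not tested.

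The S/S TNF share of cDC1 became 1.17% of barcodes with a Ptprc UMI and 1.43% with no limit on Ccr7, Fscn1 and Ccl22. With 4 UMIs of Xcr1 and Clec9a needed, shares were 0.543% in S/S TNF, 0.458% in S/S baseline and 0.495% in A/A baseline. After thinning to 1000 UMIs they were 0.059, 0.223, 0.230 and 0.197% in S/S TNF, A/A TNF, S/S baseline and A/A baseline, from 3, 13, 9 and 5 barcodes.

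The chemokine median of S/S against A/A after TNF turned to 0.50 in core members. The cell cycle median of the same comparison turned to -0.12 at 100 UMIs or more and -0.037 without the top barcodes, and that at baseline to -0.23 with equal weights, -0.49 after thinning, -0.37 with the 8 further markers and -0.29 without the deepest members. Subtracting lymphocyte ratios turned Ifi205 (-1.26), Epsti1 (0.37), Mt1 (-0.027), Mt2 (-0.27), Il1b (-1.29), Cxcl2 (-2.86) and Marcksl1 (-1.04) in S/S, and Cxcl16 (-0.16), Ifi205 (-0.51), Adam8 (-0.049), Rgs1 (-1.12), Hdac9 (0.62), Mt1 (-0.70), Mt2 (-1.35), Il1b (-1.45) and Marcksl1 (-0.77) in A/A. In S/S against A/A at baseline, equal weights turned Ube2c (-0.61), Mki67 (-0.18), Top2a (-1.08) and Hmgb2 (-0.23), leaving out the deepest members turned Top2a (-1.59) and H1f5 (-0.032), and thinning turned Hmgb2 (-0.23). After TNF, the open limit on Ccr7, Fscn1 and Ccl22 turned Top2a (-0.41) and Stmn1 (-0.29), and thinning turned Serpinb6b (0.13). The cause of these turns was not tested. Depth limits ratios with few UMIs on either side.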
